A study of Mus musculus with 2 samples.

Results

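The genes described here code for the heat shock proteins and the J proteins (DnaJ proteins) of the mouse. They were chosen by symbol from the protein-coding genes of GENCODE M21: every Dnaja, Dnajb or Dnajc symbol followed by a number, and every symbol that begins with Hspa, Hspb, Hsph, Hsp90, Hspd1 or Hspe1. The rule took 74 of the 21853 protein-coding genes on chromosomes 1 to 19, X and Y, and used no measured value. By role they were 14 genes of the HSP70 and HSP110 families, 3 of the HSP90 family, the 2 genes of the mitochondrial chaperonin, 7 small heat shock proteins, and 4, 13 and 28 J proteins of classes A, B and C. The symbol rule also took 3 genes of other kinds: Hspb11, which codes for an intraflagellar transport protein, Hspbp1, an exchange factor of HSP70, and Hspbap1, a binding partner of a small heat shock protein.

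The assay was DNase-seq. The enzyme DNase I cuts mainly where chromatin is open, and sequencing the cut ends maps such sites. The tissue was whole gastrocnemius, the main calf muscle, from male B6CASTF1/J mice (the first-generation hybrid of a C57BL/6J and a CAST/EiJ parent) at 4 days of age, with no treatment or engineered allele named. There was 1 group of 2 libraries, biological replicates 1 and 2, each labelled as tissue from 3 males and both carrying a single donor identifier. The design offers no contrast, so levels are given per library or as mean ± SD (n = 2), counts of members stand beside the same count over all 21853 genes, and nothing below is a test.

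Molecular chaperones bind proteins that are not in their folded form. HSP70 proteins work in cycles of ATP hydrolysis, J proteins start the hydrolysis and bring the client, exchange factors such as HSP110 release it, and HSP90 and the chaperonins act on later intermediates. Small heat shock proteins hold unfolded proteins without ATP and are known for their abundance in striated muscle, where they bind sarcomere and cytoskeleton proteins. Under stress, heat shock factor 1 binds the heat shock element, a row of short units of alternating direction, and in the endoplasmic reticulum (ER) the unfolded protein response acts through the ER stress element.

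A promoter peak was a peak of the longer of the 2 peak lists deposited for a library that overlapped the 500 bp on either side of an annotated coding start. Its rank was the percentile of its cut density, the authors' signal, among all peaks of that list, from 0 for a gene with no promoter peak to 100 for the densest peak. The lists held 94295 peaks in replicate 1 and 123291 in replicate 2, and the deposited footprint lists 210189 and 335055 short protected stretches. Replicate 2 therefore listed more of everything, and the depth of the libraries is unknown. The 8 skeletal muscle markers examined, among them Myod1, Ckm and Acta1, all had a promoter peak in both libraries. The 3 fibroblast markers and the endothelial genes Cdh5 and Kdr did as well, and none of 3 macrophage, 3 erythroid or 3 hepatocyte markers did. Markers of cells other than muscle fibres thus had open promoters too, and the cell type behind a peak cannot be told from these lists.

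Promoter peaks were found in both libraries at 68 of the 74 genes (91.9%), against 64.1% of all protein-coding genes. In replicate 1 the number was 68, where 65.3% of all genes had one, and in replicate 2 it was 70, where 67.0% did. The median of the mean rank was 94.7 for the 74 genes and 77.2 for all genes, and with genes lacking a peak in either library left out it was 96.1 and 92.1. A mean rank over 90 was reached by 51 members (68.9%), against 36.9% of all genes. Most chaperone promoters were thus open and lay among the densest peaks of both libraries, and no member with a peak in both had a mean rank under 50, as 1064 of 14000 such genes did over all genes. These ranks are of the strongest peak at any coding start. Counted from the principal start alone, Dnajc6 had a mean rank of 41.9.

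Bases of low false discovery rate (FDR below 0.05, as the authors listed them) gave a second view of the same promoters. Within the promoter window, 500 bp on either side of the principal start, the median was 774.5 such bases for the members and 492.5 for all genes. At 12 members (16.2%) every base of this window was listed in both libraries, against 6.19% of all genes. These 12 were Hspa8, Hspa2, Hspa4l, Hspa5, Hsph1, Hsp90aa1, Hsp90b1, Hspd1, Hspe1, Dnaja1, Dnajc3 and Dnajc13. The 5 members with no such base in either library were Dnajb7, Dnajb8, Dnajb13, Dnajc5b and Dnajc5g (6.76%), against 33.6% of all genes. The footprints in the strongest promoter peak did not set the members apart, with a median of 4.5 per peak both for them and for all genes.

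**Figure D1:**
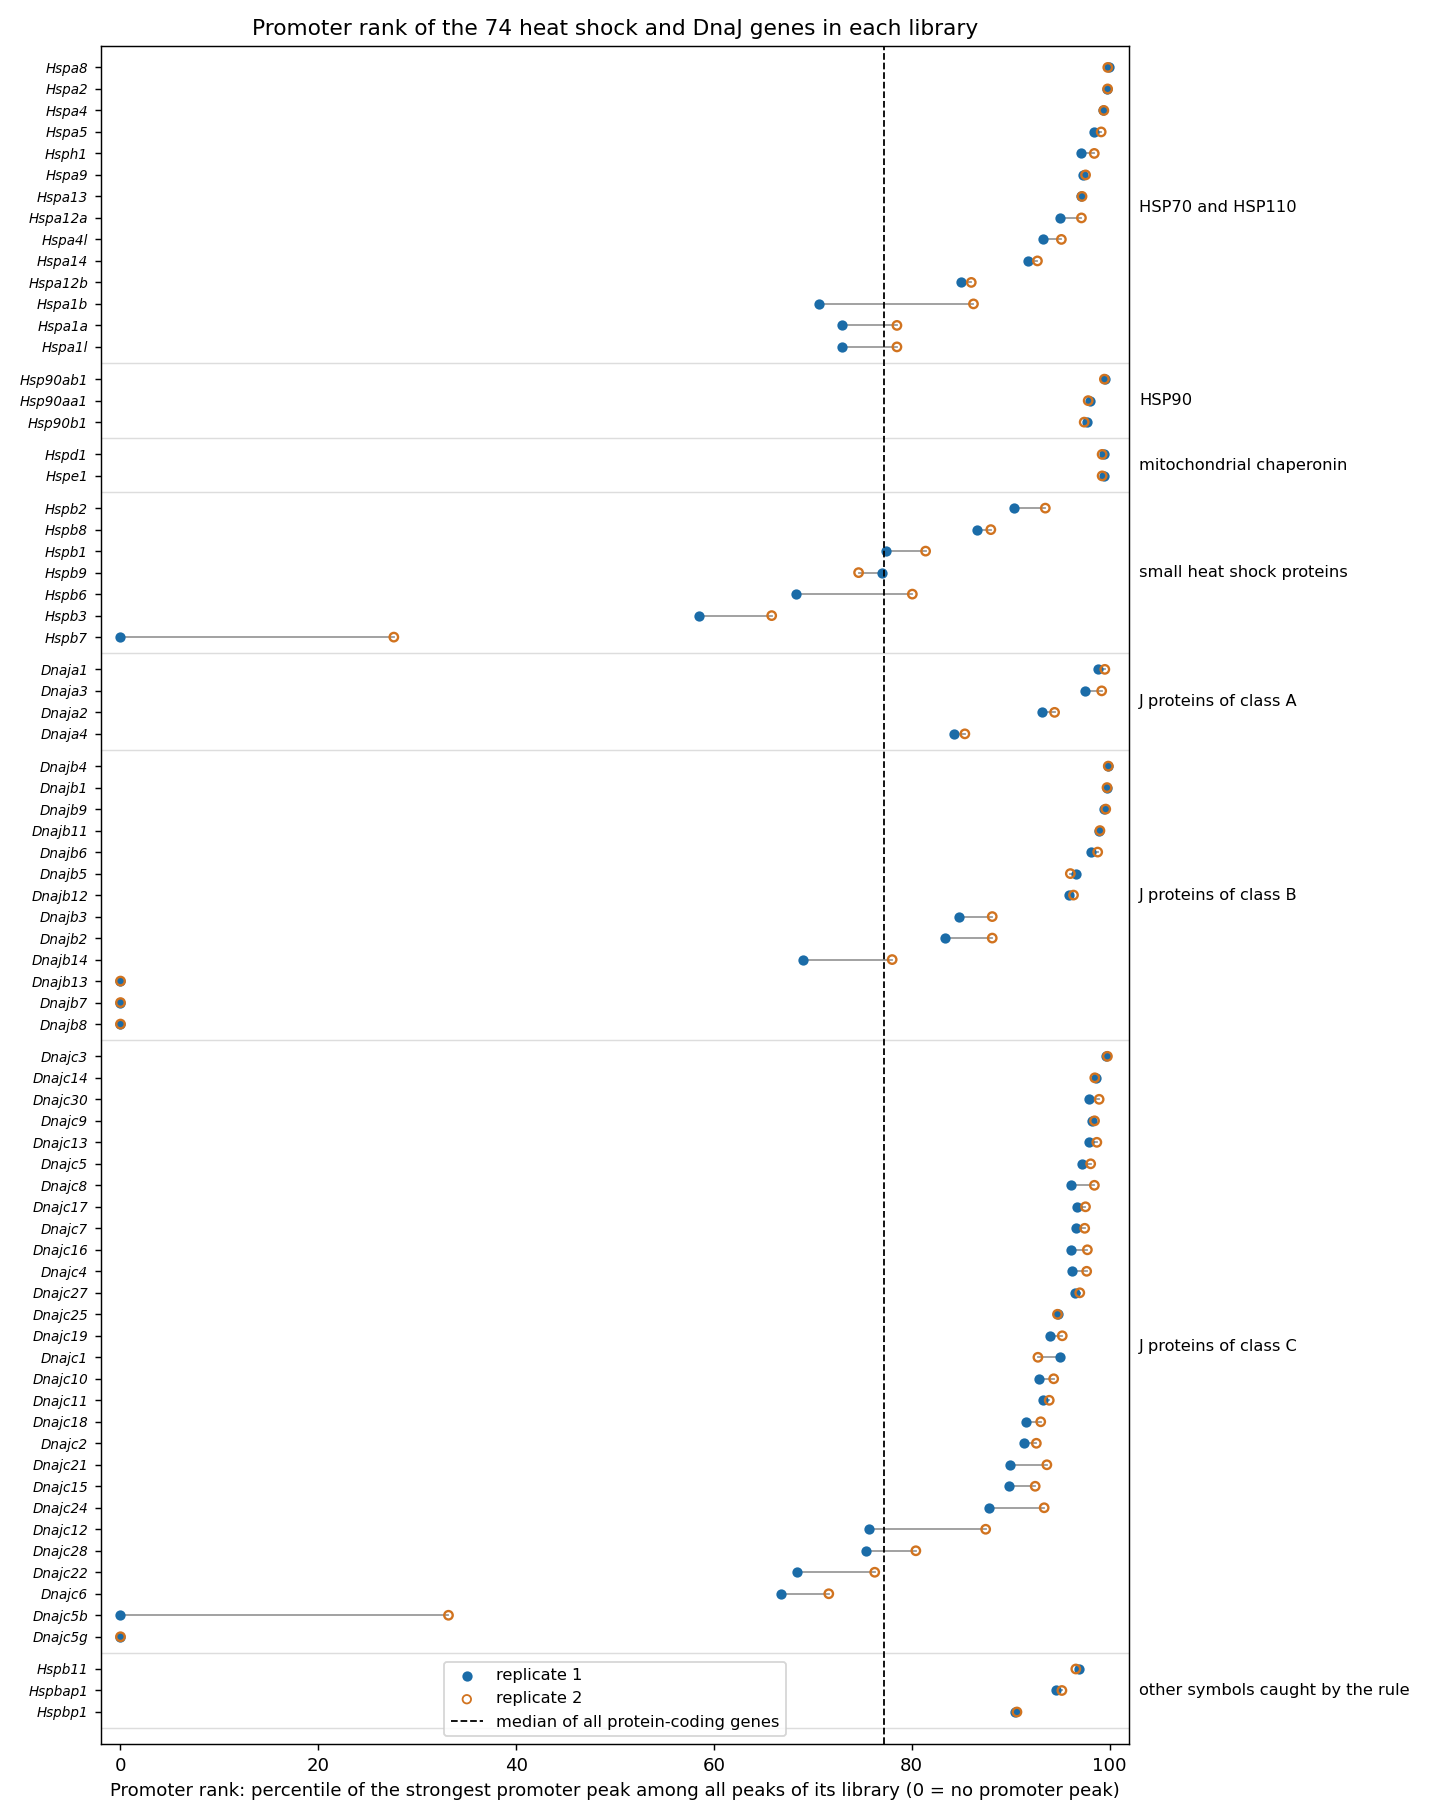
Promoter rank (x axis, percentile within the library, 0 for no promoter peak) of each of the 74 genes, grouped by role and sorted by mean rank. Filled points are replicate 1, open points replicate 2, and the dashed line is the median of all protein-coding genes, 77.2. Most genes lie above rank 90 in both libraries, the small heat shock proteins lie lower, and 4 J protein genes lie at 0 in both.

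Among the HSP70 genes the constitutive form led. Hspa8, the cytosolic HSP70 of unstressed cells, ranked 99.9 in replicate 1 and 99.8 in replicate 2, the highest mean rank of all members, ahead of Dnajb4 by less than its own SD of 0.0698. Hspa2, known for its role in male germ cells, ranked 99.7 and 99.8. Both promoters thus stood near the top of each list, although the second gene is best known from testis. Hspa5, the HSP70 of the ER, ranked 98.5 and 99.2, and Hspa9, its mitochondrial counterpart, 97.3 and 97.6. The HSP110 genes Hspa4 (99.3 and 99.4) and Hsph1 (97.2 and 98.5) lay in the same range, and Hspa4l at 93.3 and 95.1 somewhat below it. At Hspa12a the strongest promoter peak lay at -82406 bp from the principal start in replicate 1, at an alternative start, and closer to the start of Eno4. The peak at the principal start of Hspa12a ranked 87.3 and 86.2.

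The heat-inducible pair Hspa1a and Hspa1b and the neighbouring Hspa1l had the lowest mean ranks of the HSP70 and HSP110 genes, next to Hspa12b at 85.0 and 86.0. The strongest promoter peak of Hspa1a ranked 72.9 and 78.5, and that of Hspa1b 70.6 and 86.2. These peaks lay upstream, with centres 474 bp before the start of Hspa1a in both libraries and at -462 and -442 bp from that of Hspa1b. The peak at Hspa1a was also the promoter peak of Hspa1l, a testis HSP70 gene that starts 547 bp away on the other strand, and its centre was 73 bp before that start. A weaker peak covered each start: it ranked 67.3 and 73.2 at Hspa1a, and 69.2 and 77.7 at Hspa1b. The inducible genes thus had promoter peaks in these animals, for which no stress is named, with ranks that lay below 90 in both libraries.

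The starts of Hspa1a and Hspa1b are hard to read because they are nearly the same sequence. Of the 32-base words in the promoter window, 58.9% at Hspa1a and 58.2% at Hspa1b occur elsewhere in the genome, and the repeated stretch runs from -254 bp to the end of the window at both. The upstream peaks lie outside it. How reads from such words were placed is unknown here, so the weaker peaks at the starts cannot be assigned to either gene with certainty. The 100 bases before each start (GRCm38, minus strand, chr17:34972157-34972256 and chr17:34959239-34959338) are shown because they differ at 1 base, with capitals for bases inside a footprint of both libraries.
Hspa1a: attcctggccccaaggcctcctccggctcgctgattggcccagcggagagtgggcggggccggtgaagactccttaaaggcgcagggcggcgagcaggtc
Hspa1b: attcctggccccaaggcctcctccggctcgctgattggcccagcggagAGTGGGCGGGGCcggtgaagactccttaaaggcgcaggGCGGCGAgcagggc
Footprints covered 23 of these bases in replicate 1 and 17 in replicate 2 at Hspa1a, with 0 in common, and 33 and 20 at Hspa1b, with 19 in common.

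At the constitutive Hspa8 the same stretch was read alike in both libraries. Footprints covered 46 of the 100 bases before its start in replicate 1 and 60 in replicate 2, and all 46 of the first were among those of the second. The stretch (plus strand, chr9:40800884-40800983) is printed with the same use of capitals, beside that of Hspa5 (plus strand, chr2:34771870-34771969) and that of Hsp90ab1 (minus strand, chr17:45573272-45573371), the constitutive cytosolic HSP90 gene.
Hspa8: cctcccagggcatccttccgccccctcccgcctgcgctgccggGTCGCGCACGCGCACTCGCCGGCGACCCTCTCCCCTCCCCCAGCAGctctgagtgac
Hspa5: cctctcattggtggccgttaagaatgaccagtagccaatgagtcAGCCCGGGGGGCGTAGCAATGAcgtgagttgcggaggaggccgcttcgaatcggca
Hsp90ab1: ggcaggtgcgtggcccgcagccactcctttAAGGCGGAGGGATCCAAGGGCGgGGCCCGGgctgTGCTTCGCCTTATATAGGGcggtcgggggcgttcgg
The bases in common numbered 22 at Hspa5 and 48 at Hsp90ab1.

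The HSP90 genes all ranked high. Hsp90ab1 ranked 99.5 in both libraries, Hsp90aa1, the inducible form, 98.0 and 97.8, and Hsp90b1, the HSP90 of the ER, 97.7 and 97.4. The strongest peak of Hsp90b1 in replicate 2 lay 221 bp before its start and closer to Ttc41, a gene that starts 302 bp away on the other strand. Hspd1 and Hspe1 code for the large and the small ring of the mitochondrial chaperonin, and start head to head 108 bp apart. They share 1 promoter peak, which ranked 99.4 in replicate 1 and 99.3 in replicate 2 and held 7 and 9 footprints.

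The small heat shock proteins were the group with the lowest ranks apart from the J protein genes with no listed peak. Their median mean rank was 75.8, below the 77.2 of all genes, although 6 of 7 had a promoter peak in both libraries. Hspb1 (HSP25 of the mouse) ranked 77.4 and 81.4, Hspb8 86.6 and 88.0, and Hspb6 (HSP20) 68.3 and 80.1. With promoters of 1000 bp on either side the mean rank of Hspb6 was 97.1 in place of 74.2. That wider window reaches the start of Proser3, 976 bp away on the other strand, so the higher rank may not describe Hspb6 alone. Hspb3 had the lowest mean rank of all members with a peak in both, at 62.2 ± 5.17, with 58.5 in replicate 1 and 65.8 in replicate 2. That value depended on the setting: it was 23.2 with promoters of 200 bp and 37.5 when the shorter list was used. It was 24.4 when only the denser 50% of peaks were kept, which follows from re-ranking the same peak in a shorter list. The group thus spread widely, and Hspb3, Hspb1 and Hspb6 differed between libraries by more than the HSP90 genes did. Hspb9, a testis member, ranked 77.0 and 74.6. In Hspb1, 36.6% of the 32-base words occur elsewhere, all of them in the part from 83 bp after the start, and 355 match 1 stretch of chromosome 13.

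Hspb2 and Hspb7 were special cases. Hspb2 is a partner of the myotonic dystrophy kinase and starts 614 bp from Cryab, the gene of alpha B crystallin, on the other strand. Its strongest promoter peak ranked 90.3 and 93.5, but the peak is the same as that of Cryab and its centre lies at -647 bp from the Hspb2 start. The peak at the Hspb2 start itself ranked 69.2 and 70.4. Hspb7, a small heat shock protein of heart and skeletal muscle, had no promoter peak in replicate 1 and 3 weak ones in replicate 2, of which the strongest ranked 27.6. With promoters of 1000 bp on either side it had a peak in both, and its mean rank was 83.1 in place of 13.8. In its promoter window 0 bases were of low FDR in replicate 1 and 688 in replicate 2. Hspb2 (290 and 785 bases) and Hspb6 (431 and 949) differed between libraries in the same direction. The median difference, replicate 2 minus replicate 1, was 59.0 bases in this group, 68.0 in J proteins of class B, 46.5 over all members and 4.00 over all genes. Genes with no such base in either library differ by 0, and they made up 33.6% of all genes but 6.76% of members. The medians of members and of all genes are therefore not like for like. The unequal number of listed regions in the libraries moves with the difference between libraries, and its part was not tested.

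The 100 bases before the Hspb7 start (plus strand, chr4:141420679-141420778) held no footprint base in either library and are shown as a stretch without footprints, beside the same stretch of Hspb1 (plus strand, chr5:135887819-135887918), where 26 bases were in footprints of both.
Hspb7: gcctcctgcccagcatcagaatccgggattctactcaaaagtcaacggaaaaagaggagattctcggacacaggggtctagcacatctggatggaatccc
Hspb1: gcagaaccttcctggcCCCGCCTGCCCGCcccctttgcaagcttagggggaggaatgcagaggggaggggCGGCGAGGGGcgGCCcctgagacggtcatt

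The J proteins of class A, which resemble bacterial DnaJ over their whole length, all had promoter peaks. Dnaja1 ranked 98.9 and 99.5, Dnaja3, the mitochondrial form, 97.5 and 99.2, and Dnaja2 93.2 and 94.4. Dnaja4 ranked 84.3 and 85.4 with a peak that lay 637 bp inside the gene in replicate 1. Counted from the principal start alone, Dnaja4 had no promoter peak in both libraries, and it was the only member lost under that setting.

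Class B held genes with high ranks and genes with no listed promoter peak. Dnajb1, the J protein that is induced with HSP70 by heat, ranked 99.8 and 99.7, and Dnajb9, an ER J protein of the unfolded protein response, 99.5 and 99.6. Dnajb4 ranked 99.9 in both libraries, but its peak lies closer to the start of Fubp1, 339 bp away on the other strand. Dnajb6, whose human counterpart is mutated in a limb girdle muscular dystrophy, ranked 98.2 and 98.8, and Dnajb5 96.6 and 96.0. Dnajb7, Dnajb8 and Dnajb13 lacked a promoter peak in both. Dnajb8 and Dnajb13 are known from testis, and Dnajb13 codes for a part of the sperm flagellum. The open genes of this class thus ranked from 73.5 (Dnajb14) to 99.9 in the mean, with nothing between that and 0.

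Class C, whose members share little beyond the J domain, had peaks in both libraries at 26 of 28 genes, with a median mean rank of 94.2. Dnajc3, an ER protein that inhibits the kinase PKR in the stress response, led with 99.7 and 99.8. Dnajc5, the cysteine string protein of synaptic vesicles, ranked 97.2 and 98.1, and Dnajc19, a part of the mitochondrial import motor, 94.0 and 95.2. Dnajc6, the auxilin of neurons, ranked 66.8 and 71.6, with its strongest peak 54192 bp inside the gene at an alternative start, and Dnajc22 ranked 68.4 and 76.3. These were the lowest of the class among genes with a peak in both. The peak at the principal start of Dnajc6 ranked 41.5 and 42.3. The testis forms of the cysteine string protein were at the low end: Dnajc5g had no promoter peak, and Dnajc5b had none in replicate 1 and 1 at rank 33.2 in replicate 2, 22000 bp from its principal start. With promoters of 1000 bp on either side Dnajc5b had a peak in both libraries, at a mean rank of 80.1.

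Grouped by compartment or use, all 10 ER genes had promoter peaks in both libraries, with a median mean rank of 97.4, as had all 7 mitochondrial genes (97.5) and all 8 genes of the stress-inducible cytosolic group (97.9). This last group was Hspa1a, Hspa1b, Hsph1, Hsp90aa1, Dnaja1, Dnajb1, Hspb1 and Hspa8, the last of them constitutive. In it 5 genes had a mean rank over 90, while Hspa1a, Hspa1b and Hspb1 had 75.7, 78.4 and 79.4. Of the 8 genes known mainly from testis, 4 had a peak in both, with a median of 46.2, and 3 of the 4 members with no peak in either library belonged to them. Neither library had a promoter peak at 31.8% of all genes, and the same held for 4 of the 74 members. The muscle group of small heat shock proteins and Dnajb6 had a median of 79.4, and Hspb1 counts in both this group and the stress-inducible one. By these medians, gene groups that most cells use thus ranked above those known mainly from muscle or testis, as a description of these lists.

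The promoters of the members were rich in CpG, which is background for these counts. The CpG ratio, the observed over the expected number of CpG pairs in the promoter window, had a median of 0.77 for the members and 0.57 for all genes. When all genes were split into 10 classes of equal size by this ratio, 42 members fell in the top 3 classes, where 96.3% to 98.3% of all genes were open in both libraries. In classes 6 to 10 all 55 members had one. In class 5 all 9 members did, among them Hspb3 and Hspb9, where 77.4% of all genes in that class did. In classes 1 to 4, where the share over all genes ran from 4.53% to 45.7%, 4 of 10 members had one: Hspb2, Hspb6, Hspb8 and Hspa12b. The high share of open members thus moved with their CpG ratio, and its part in that share was not tested.

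**Figure D2:**
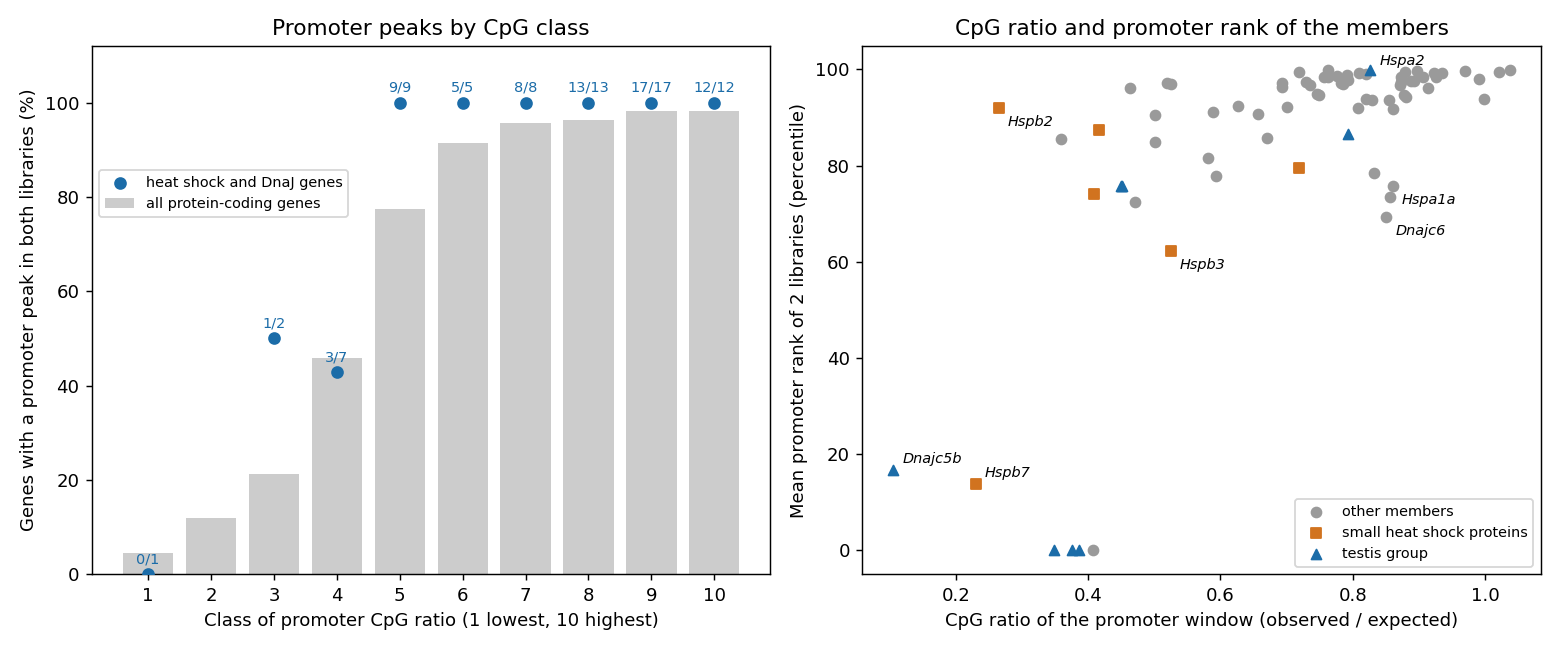
Left, share of genes with a promoter peak in both libraries (y axis, percent) by class of promoter CpG ratio (x axis); bars are all protein-coding genes and points the members, with their counts. Right, mean promoter rank of the 2 libraries (y axis) against CpG ratio (x axis) for each member, with the small heat shock proteins and the testis group marked. The members with no peak in 1 or both libraries all have a ratio of 0.408 or lower, while Hspa1a and Dnajc6 combine a high ratio with a rank below 80. The Dnajc6 ratio is of the window at its principal start, but its rank is of a peak at an alternative start.

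Some of these genes start close to a gene on the other strand, which by itself does not show a shared promoter. A coding start of another gene lay on the other strand within 1 kb upstream of the principal start at 17 members (23%), against 8.54% of all genes. Besides Hspd1 with Hspe1, Hspa1a with Hspa1l and Hspb2 with Cryab, these included Dnajb6 with Gm5129, 4 bp apart, Dnajc2 with Psmc2 (32 bp), Dnajc30 with Bud23, Dnajc7 with Nkiras2 (116 bp) and Dnajb11 with Tbccd1 (176 bp). Both genes of the Hspd1 and Hspe1 pair and of the Hspa1a and Hspa1l pair are members and are counted. Dnajc5g, which had no promoter peak, is counted too, and at Dnajc7 the strongest peak of replicate 1 lay 468 bp inside the gene. At 9 members the strongest promoter peak lay closer to another coding gene in at least 1 library, so its rank may not describe the member alone. The strongest peaks of the libraries overlapped at 64 of the 68 members with a peak in both.

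Heat shock elements were searched for in the promoter window on both strands, as 3 units in alternating direction with their cores 2 bases apart, which is GAANNTTCNNGAA or, on the other strand, TTCNNGAANNTTC. Of the members, 9 (12.2%) held at least 1, against 1.66% of all genes. In 6 members an element lay in a promoter peak of both libraries, against 0.183% of all genes. In 1 member, Dnaja1, an element lay in a promoter peak and overlapped a footprint in both libraries, against 0.0458%. The counts in peaks and footprints are part of the count in windows, and their shares are of all genes, with or without an element. Among genes with an element, it lay in a promoter peak of both libraries at 6 of 9 members and 40 of 363 of all genes. It lay in a peak and a footprint of both at 1 of 9 and 10 of 363. Since the element was originally described in such genes, none of these counts is independent evidence about them. A match is only a match of letters, and these lists do not show what protein made a footprint.

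The elements that lay in a promoter peak of both libraries are printed with the element in capitals and 8 flanking bases on each side, 5′ to 3′ on the strand of the gene, in GRCm38. In Dnaja1 it lay at chr4:40722534-40722546, with its centre 60 bp after the start. In Dnajb6 it lay at chr5:29735852-29735864, 82 bp before the start, at the edge of the peak, and a footprint overlapped its first bases in replicate 2 only. In Hsp90aa1 it lay at chr12:110696387-110696399 on the minus strand, 2 bp after the start, and in Hspa8 at chr9:40801063-40801075, 85 bp after the start, and no footprint overlapped either of these.
Dnaja1: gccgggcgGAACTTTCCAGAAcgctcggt
Dnajb6: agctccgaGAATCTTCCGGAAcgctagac
Hsp90aa1: gagggttcTTCCGGAAGGTTCcggaggct
Hspa8: gcgagcgtGAAAGTTCCAGAAcgccgcgg
Between the starts of Hspd1 and Hspe1, 2 overlapping elements formed a stretch of 18 bases at chr1:55088059-55088076, printed on the plus strand with 6 flanking bases. The same stretch counts for both genes.
Hspd1 and Hspe1: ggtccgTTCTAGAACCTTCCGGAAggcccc
It lay inside the shared peak in both libraries, and no footprint overlapped it. At these 6 genes the element was thus in or at the edge of a peak in both libraries, and a footprint of both libraries reached it only at Dnaja1, where both footprints overlapped its 3′ end. The Dnaja1 element lies in a stretch from 41 to 154 bp after the start in which all 114 bases belong to 32-base words found elsewhere, with 51 such words at 1 place on chromosome 7, so reads there may not be unique to the gene.

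In 4 genes an element lay outside the promoter peaks. These were Dnajb5, with its element at -383 bp, Hsph1, 44 bp after it, Hsp90b1, 257 bp after it, and Hspa8, whose second element lay 243 bp after the start. In all, the members held 10 different elements, of which 6 lay in a promoter peak of both libraries. Units of 2 facing cores were too common to be informative, at 34 members (45.9%) against 39.1% of all genes.

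With 1 core base allowed to differ, 25 members (33.8%) held an element, against 20.3% of all genes, and all 8 genes of the stress-inducible group did. Hspa1a and Hspa1b held the same imperfect elements, an overlapping pair of which the outer lies 108 bp before the start, at chr17:34972258-34972270 and chr17:34959340-34959352, in the repeated stretch. The outer element touched the weaker peak of each gene in both libraries, and no footprint overlapped it. Hspb1 held one 111 bp before its start, at chr5:135887802-135887814, in a promoter peak in replicate 1 and in a footprint in both. Dnajb1 held one 34 bp after its start, at chr8:83608221-83608233, in a peak and in a footprint in both libraries. These are printed in the same way, as imperfect matches at the best-known inducible genes.
Hspa1a and Hspa1b: ccagacgcGAAACTGCTGGAAgattcctg
Hspb1: caacaagaGAAGTTTCCAGATgggggcag
Dnajb1: gaggggcgGAAGGTTCTGGAGggctggcg
In Dnajb1, Hspb1, Dnaja1 and, outside its promoter peaks, Dnajb6 the footprints thus reached an element in both libraries. In Hspa1a and Hspa1b they did not, and the repeated stretch there makes a missing footprint hard to read. Nor did they at other genes with an element in a peak of both, among them Hsp90aa1, Hspa8, Hspd1, Hspe1 and Hsph1. The share over all genes was not computed for these imperfect elements in footprints.

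**Figure D3:**
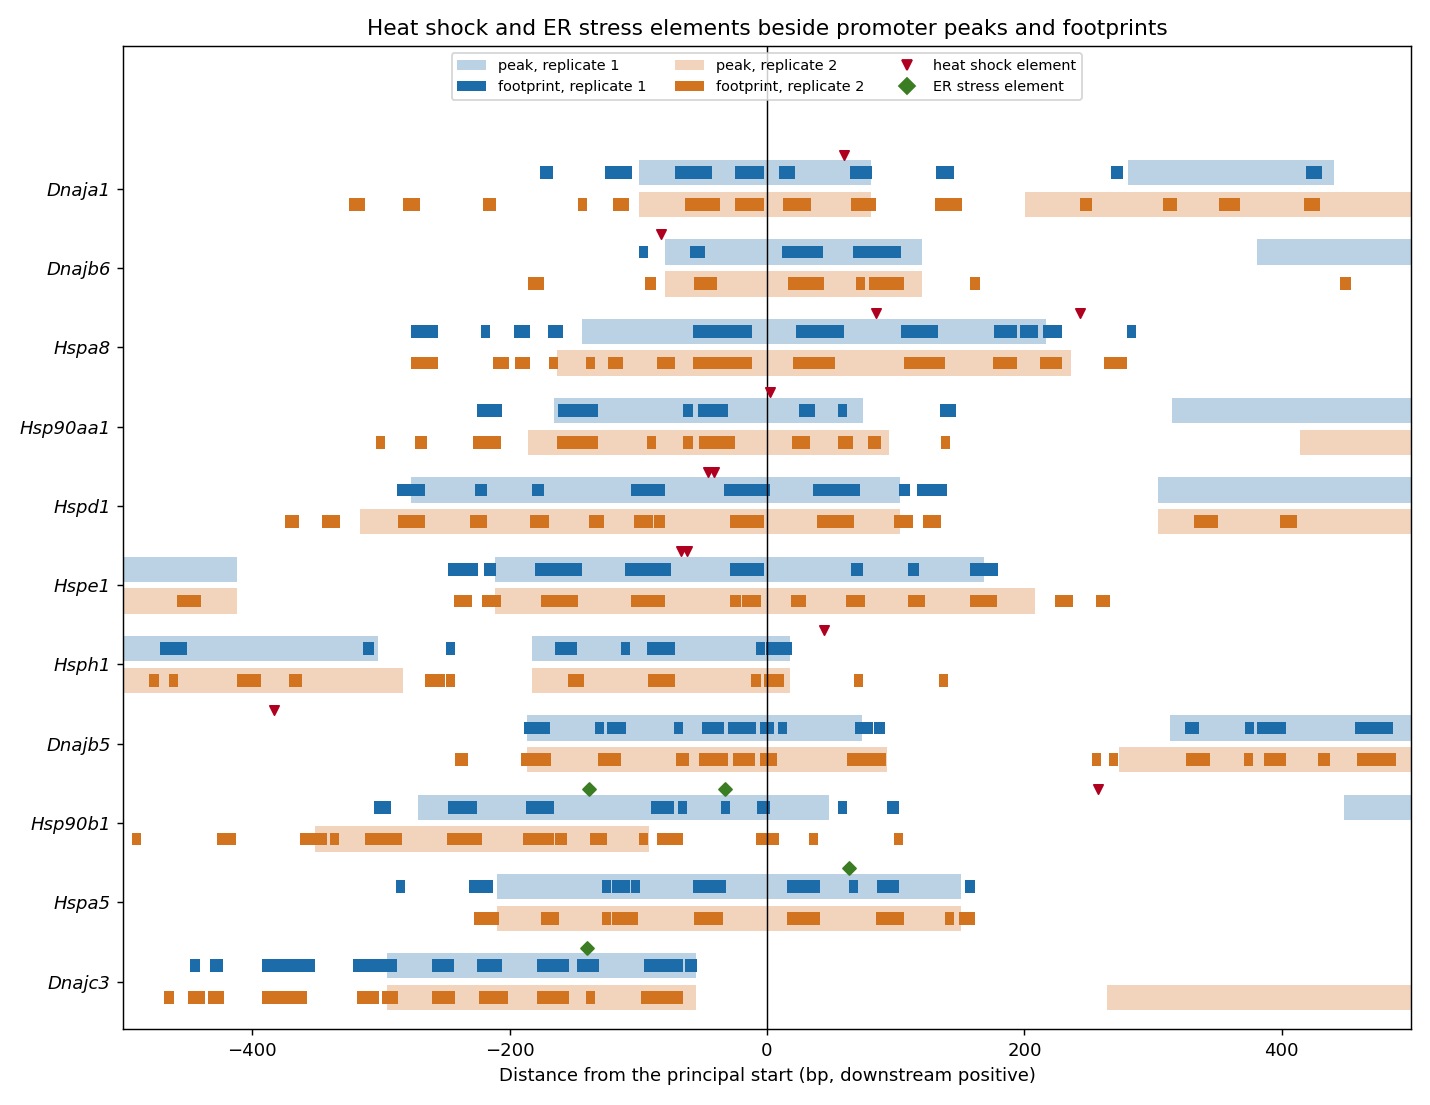
Heat shock elements (triangles) and ER stress elements (diamonds) of 11 genes by distance from the principal start (x axis, bp, downstream positive). Pale bars are promoter peaks and dark bars footprints, in blue for replicate 1 and orange for replicate 2. The upstream of the 2 Hspa8 elements and the heat shock elements of Hsp90aa1, Hspd1 and Hspe1 lie inside peaks and between footprints, the other Hspa8 element lies outside the peaks, and the element of Dnaja1 touches a footprint in both libraries.

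The ER stress element, CCAAT and CCACG with 9 bases of any kind between them, was found in 3 members (4.05%), against 0.165% of all genes, and all 3 belong to the ER group. They were Hspa5, Hsp90b1 with 2 elements, and Dnajc3. In Dnajc3 the element lay at chr14:118937827-118937845, 140 bp before the start, in a peak and a footprint in both libraries. In Hspa5 it lay at chr2:34772025-34772043, 64 bp after the annotated start, in a peak of both and a footprint of replicate 1. In Hsp90b1 the element 138 bp before the start (chr10:86705638-86705656, minus strand) was in a peak of both and a footprint of replicate 2. The element 33 bp before the start (chr10:86705533-86705551) was in a peak and a footprint of replicate 1 only. They are printed with 5 flanking bases on each side and the element in capitals.
Dnajc3: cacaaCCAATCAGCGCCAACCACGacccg
Hspa5: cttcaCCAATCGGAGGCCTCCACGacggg
Hsp90b1, upstream element: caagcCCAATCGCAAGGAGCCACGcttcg
Hsp90b1, downstream element: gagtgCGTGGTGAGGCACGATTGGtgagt
All 4 elements thus overlapped a footprint in part in at least 1 library, and that of Dnajc3 in both. The share over all genes was not computed for this overlap. As with the heat shock element, a count of this motif in ER genes of the unfolded protein response is no independent evidence about them.

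Among common promoter motifs, the GC box GGGCGG was found in the windows of 85.1% of the members and 61.7% of all genes. The CCAAT box was no more frequent in the members, at 68.9% against 70.1%, but it was more often under a footprint. A CCAAT box overlapped footprints of both libraries at 17 members (23%), against 8.53% of all genes. Among genes with a promoter peak in both libraries the shares were 25% and 13.3%, and in CpG classes 8 to 10 they were 31% of 42 members and 16% of all genes there. The members were Hspa2, Hspa5, Hspa8, Hsp90b1, Hspd1, Hspe1, Dnajb1, Dnajb4, Dnajb5, Dnajb9, Dnajb11, Dnajc3, Dnajc4, Dnajc12, Dnajc13, Dnajc27 and Dnajc30. A GC box was in a footprint of both at 40 members (54.1%), against 32.2% of all genes, and in CpG classes 8 to 10 at 66.7% against 62.6%. Motifs of muscle factors and the TATA box were no more frequent in the 74 members than in all genes. The E-box CAGCTG was in 37.8% of members and 41.7% of all genes, MCAT (CATTCC) in 32.4% and 37.8%, the MEF2 site in 4.05% and 9.0%, and the TATA box TATAAA in 13.5% and 20.6%. Of the 7 genes of the muscle group, 4 held the E-box, 4 MCAT, 2 the MEF2 site and 2 the TATA box. These shares of 57.1%, 57.1%, 28.6% and 28.6% were above those of all genes, but 7 genes are too few to set the group apart.

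Distal peaks were those found in both libraries whose centre lay over 1 kb away from any annotated start and within 50 kb of the principal start. At least 1 was found at 64 members (86.5%), against 73.3% of all genes, with a median of 2 in both cases. At least 5 were found at 17 members (23%), against 18.4% of all genes. There were 217 different distal peaks, of which 84 lay between genes, 96 in introns and 37 in exons. Their median mean rank was 64.1, and 12 had a mean rank over 90. The strongest was 30300 bp downstream of the Hspa5 start, between genes, and ranked 96.6 and 98.2. Which gene a distal peak acts on, if any, these data do not show.

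The small heat shock proteins, whose promoters ranked low, had the most distal peaks, with a median of 6 per gene and at least 5 at 5 of the 7 genes. Hspb1 had 12, as many as Dnajb12 and more than Hspa8, which followed with 9. At Hspb1 they included 1 at 16151 bp downstream that ranked 93.9 and 90.5, above the 77.4 and 81.4 of its promoter. Hspb8 had 8 and Hspb7 had 7. Around the weak promoter of Hspb7, 4 of these peaks lay from 5026 to 10391 bp downstream, and ranked 71.3 and 71.4, 60.4 and 72.1, 63.1 and 69.1, and 68.4 and 78.2. Hspb7 thus had open distal sites in both libraries without a promoter peak in replicate 1.

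Of the 217 distal peaks, 3 held a MEF2 site, 50 an E-box CAGCTG and 1 a heat shock element. The same shares over the distal peaks of all genes were not computed, so these counts do not set the members apart. The MEF2 sites belonged to Hspb7, 5556 bp downstream (chr4:141426340-141426349), to Hspa8, at -43084 bp (chr9:40757846-40757855), and to Dnajc5, at -49035 bp (chr2:181471445-181471454). The heat shock element lay at -48446 bp from the start of Dnajc10 (chr2:80266998-80267010), in a peak that ranked 59.1 and 61.0. Only the site near Dnajc5 overlapped a footprint, in replicate 2. They are printed on the plus strand with the site in capitals and 8 flanking bases.
Hspb7, MEF2 site: tttgtagaCTAAATATAGatctggct
Hspa8, MEF2 site: tggatgtgTTATAAATAGaagctaga
Dnajc5, MEF2 site: cccacgggCTATTTTTAActtggctg
Dnajc10, heat shock element: gcagaaagGAAGATTCGTGAAccgtagga

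**Figure D4:**
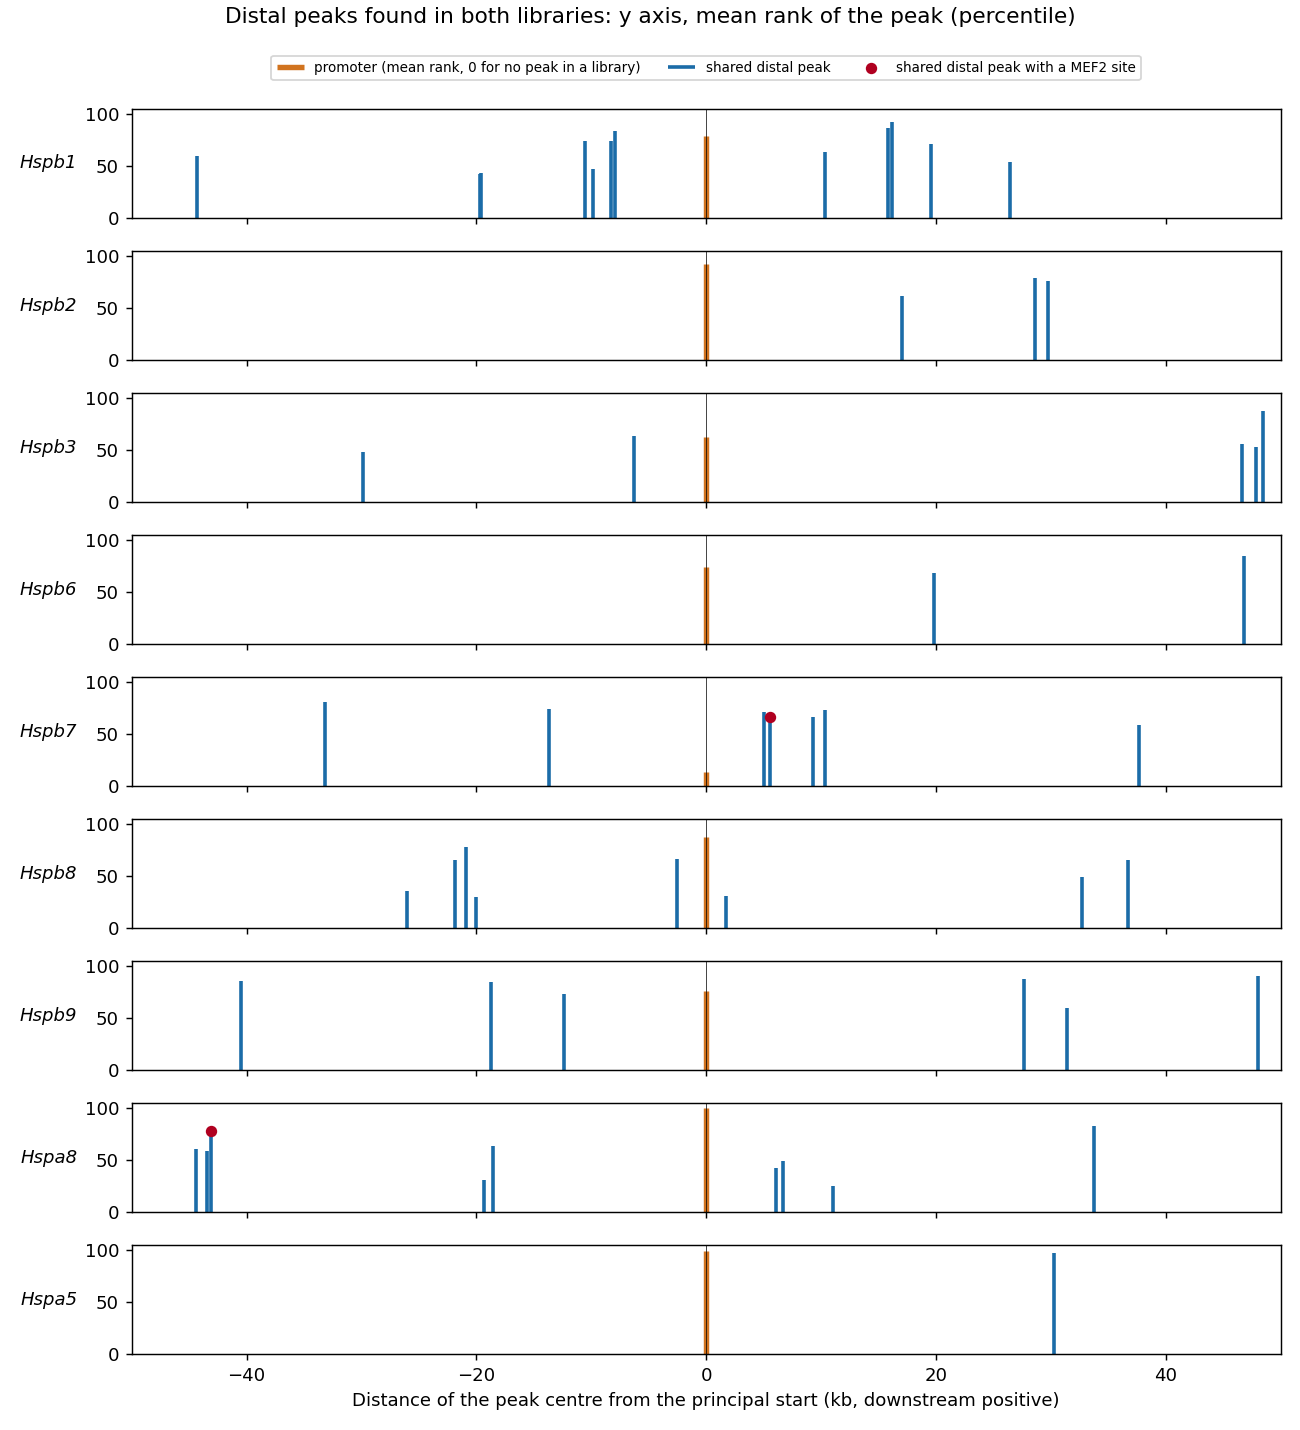
Distal peaks found in both libraries around the 7 small heat shock protein genes, Hspa8 and Hspa5, by distance of the peak centre from the principal start (x axis, kb). The y axis is the mean rank of the peak (percentile), the orange bar at 0 is the promoter, and red points mark peaks with a MEF2 site. Hspb1 has 12 distal peaks, Hspb7 has distal peaks that rank above its promoter of 500 bp on either side, and Hspa5 has a single one that ranks nearly as high as its promoter.

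Other genes of the chaperone network were as open. Of 38 such genes outside the symbol rule, 36 had a promoter peak in both libraries, with a median mean rank of 96.6 over the 38. Hsf1 (96.3 and 97.5) and Hsf2 (96.3 and 97.0), the heat shock factors, were among them, and Hsf4, a factor known from the lens, had no promoter peak. All 22 cochaperones had one, from Unc45b, the myosin chaperone of muscle, at 47.3 and 60.3 to Stub1, a ubiquitin ligase that acts on HSP70 clients, at 99.7 and 99.8. All 7 subunits of the cytosolic chaperonin TRiC that were examined had one, and a further subunit, Cct6a, was left out. Of the crystallins, Cryab shared the peak of Hspb2 and Cryaa, of the lens, had none. With promoters of 500 bp on either side, Unc45b, like Hspb3, Hspb6 and Hspb7, thus ranked below the median of all genes in the mean. So did members not known mainly from muscle, among them Hspa1a, Dnajb14, Dnajc22 and Dnajc6. With 1000 bp on either side Hspb6 and Hspb7 had mean ranks of 97.1 and 83.1, above the median of 79.0 over all genes. For Hspb6 that window also reaches the start of Proser3.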

How the data were processed

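Per the file listings, each library had 2 peak lists, a footprint list and an FDR list on mm10 (GRCm38), made by the authors from that library's alignments alone. The deposited peak signal is a cut density. The sources used here do not give its scaling to depth, the aligner or the callers. The deposited FDR (a q-value) lists hold only stretches below 0.05, and the footprint score is 0.01 throughout and was not used. Densities were turned into percentile ranks within a list, since their step differed 2.03-fold between libraries. Starts and exons came from GENCODE M21 (principal start: best APPRIS level), roles from general knowledge, and sequence from the GRCm38.p6 reference. Overlap meant at least 1 bp. Python 3.11.15, numpy 2.4.6 and scipy 1.17.1 were used, and the interval and motif code was tested on simulated data. Cct6a, a TRiC subunit that GENCODE M21 does not annotate as coding, was left out.

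The genes named are a panel fixed by role, members with no promoter peak in 1 or both libraries, the 3 highest and 3 lowest ranks, the 3 with most distal peaks, and those with an element in a footprint of both. Other genes were named after their values were seen. The members and lists were chosen with earlier results of these data known. The head-to-head counts, boxes in footprints and printed upstream stretches were chosen after seeing the data. Libraries labelled as biological replicates share a donor entry, so SDs may be partly technical. The counts of genes carry no interval because genes are not replicates.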

Additional observations from a re-analysis of the deposited data

How the results depend on the processing

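The 68 promoter peaks in both libraries stayed between 67 and 68 with promoters of 200 bp, the principal start alone, the shorter peak list, the strongest 50% of peaks or equal numbers of peaks. Dnaja4 was lost with the principal start alone and Dnajc22 with the shorter list, and 1000 bp added Dnajc5b and Hspb7. The median rank of members was 94.0 with 200 bp, 90.9 with the shorter list, 89.4 with the strongest 50%, 93.9 with equal numbers, 96.1 over members with a peak only, and 94.7 to 95.2 with either replicate left out. Over all genes it moved further, to 73.9, 61.1, 54.5 and 74.1 under the first 4 of these. Keeping the strongest 50% re-ranks the same peaks in a shorter list, which lowers the lower ranks more. Equal numbers of peaks does the same in replicate 2. The moves of the medians under these settings follow from the ranking and are no check of it. Heat shock elements were found in 5 members from 250 bp before to 50 bp after the start, 34 with 2 facing units and 25 with 1 core base differing. In peaks of both the last 2 gave 14 and 12, and in footprints of both 3 and 2. With the element wholly in a footprint the count was 0, and with either replicate left out 1 to 2. Footprints came to 1.99 per 100 bp of peak, low-FDR bases to 974 in a window of 1000 bp on either side, and CCAAT boxes wholly in footprints of both to 10 members. No paired analysis was possible because there was 1 group. Depth is unknown, so an unlisted promoter was not detectable by the authors' thresholds and is not shown to be closed.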
